A study of Homo sapiens with 24 samples.

Results

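The comparison described here set SKBr3 cells under an inhibitor of acetyl-CoA carboxylase (ACC) against the same cells under bleomycin, all genes included. Its members are the 3 libraries labelled ND646 and the 3 labelled BLEO, 6 of the 24 libraries of the series, chosen by their labels and not by any measured value. SKBr3 is an established human breast cancer line of luminal type with an amplified HER2 (ERBB2) gene. ND-646 blocks both ACC enzymes, which make the malonyl-CoA from which fatty acids are built, and bleomycin is a glycopeptide antibiotic that breaks DNA. The study used both to bring cells into therapy-induced senescence (TIS), a growth arrest with changed shape and secretion. After removal of higher doses, it reported partial recovery of colony growth for ND-646 cells and none for bleomycin cells. At the ND-646 dose and renewal of these libraries, the study found the usual senescence stain, beta-galactosidase activity, in only a minority of SKBr3 cells. Bulk RNA does not separate stained from unstained cells. Whether the share of senescent cells differed between the groups was not tested. The pair therefore asks how cell populations under blocked fatty acid synthesis differ from populations after DNA breaks.

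ND-646 was given at 250 nmol/L and bleomycin at 10 µmol/L, each renewed on day 3, and RNA was taken on day 7. A pair of untreated groups of 3 libraries each served as reference, one collected at day 0 as proliferating cells and one at day 7. A second pair, in other libraries, was TVB-3166, an inhibitor of fatty acid synthase (FASN), at 250 nmol/L against doxorubicin, another DNA-damaging drug, at 10 nmol/L, with the same days. No genetic change was made to the cells, every group is the same line, and each drug stands at 1 dose. Nothing in the labels says whether the 3 replicates are separate cultures, so p-values measure the spread between these libraries, which may be technical.

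As background, cells sense sterols and unsaturated fatty acids through SREBP transcription factors, which are cut free in the Golgi when membranes lack these lipids and then switch on the genes of cholesterol and fatty acid synthesis. Fatty acids themselves are ligands of the PPAR receptors, and oxysterols of the LXR receptors. DNA damage can lead to interferon signalling when fragments of DNA reach the cytosol, and it can switch on NF-kB. Senescent cells of many kinds release cytokines, growth factors and proteases, together called the senescence-associated secretory phenotype (SASP).

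Total counts lay between 29405121 and 30402853 in the ND-646 libraries and between 32314679 and 32702078 in the bleomycin libraries. Levels are given as CPM, read counts scaled to a common library total after trimmed mean of M-values (TMM) normalisation. ND-646 replicate 1 stood apart: its Euclidean distance in log2 CPM was 83.2 to replicate 2 and 86.6 to replicate 3, against 43.0 between replicates 2 and 3, and between 52.2 and 61.8 within bleomycin. Distances between the groups ran from 72.9 to 113. The 7 of 8 luminal markers in the table summed to between 9760 and 17400 CPM over the 6 libraries, with ERBB2 at 8526, 6354 and 7281 CPM under ND-646 and 6786, 5155 and 5121 CPM under bleomycin. E-cadherin (CDH1) was not among the genes listed. Of 14 markers of fibroblasts, leukocytes and endothelium, 4 were tested.

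Of 13745 genes tested by edgeR's quasi-likelihood test, 203 were higher under ND-646 than under bleomycin (1.48%) and 498 were lower (3.62%). A call asked for a difference of 2-fold or more together with a Benjamini-Hochberg adjusted p under 0.05. The median log2 fold change over all genes tested was 0.01, and 6970 genes were on the positive side. All ND-646 libraries lay above all bleomycin libraries in 2259 genes and below them in 2333. Against untreated day-7 cells, ND-646 called 1100 genes higher (8.03%) and 1127 lower (8.22%), and bleomycin 1130 higher (8.19%) and 763 lower (5.53%). These comparisons share libraries with each other and with the main one. The call counts rested on every library: without bleomycin replicate 3, 35 genes were called higher and 141 lower, and without bleomycin replicate 1, 96 and 244. Without bleomycin replicate 2, 118 and 481 genes were called. Without ND-646 replicate 2 the lower count was 274, and without replicate 3 it was 281. Without ND-646 replicate 1, the library that stood apart, 204 and 589 genes were called. Of the called genes, 151 were followed through the 6 fits that left out 1 library. All 151 had the same sign in each of the 6, and 58 of them were called in all 6. They were chosen by their calls in these same libraries, so the shared sign is no separate support for their directions. FABP5, named further on, was not among those followed. Fewer cells of a kind and less RNA per cell cannot be told apart in these bulk libraries.

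**Figure D1:**
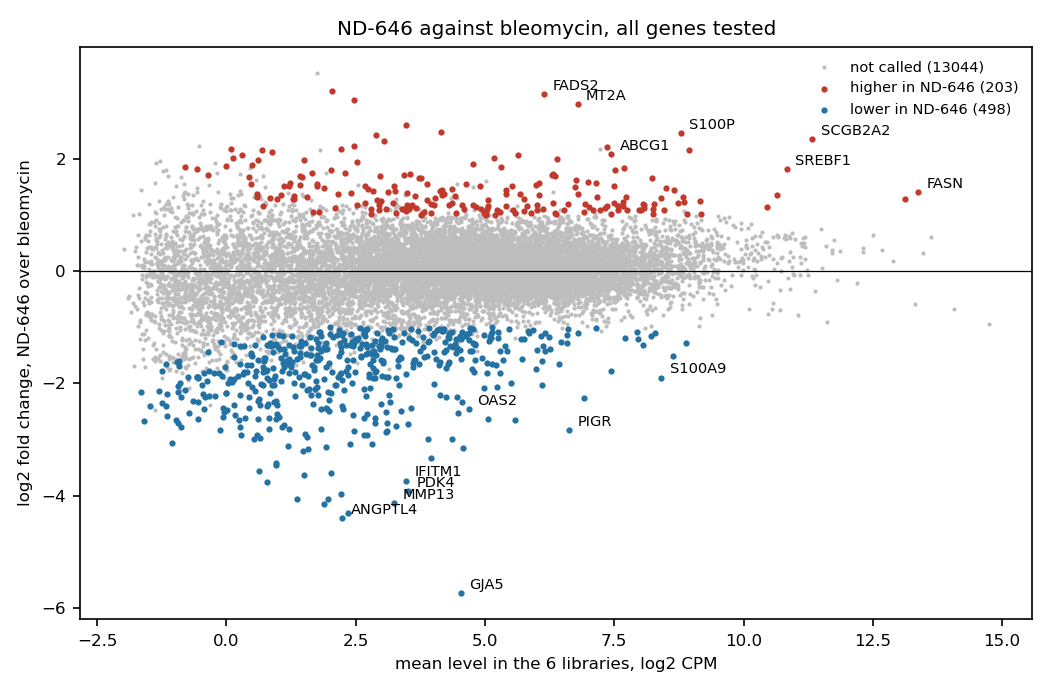
Log2 fold change of ND-646 over bleomycin (vertical axis) against the mean level in the 6 libraries in log2 CPM (horizontal axis) for the 13745 genes tested, 1 point a gene, with the 203 genes called higher in red and the 498 called lower in blue. The lower side holds more genes and reaches further, to GJA5 at -5.73, while the red genes at the right end include FASN and SCD.

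Several of the gene groups below share letters in their promoters. RefSeq promoter windows, 250 bases before to 50 after each gene start on GRCh38.p14, were found for 10346 of the genes tested. The core of the interferon-stimulated response element (ISRE, GAAANNGAA on either strand) was in 13 of 18 windows of tested interferon-stimulated genes (72.2%), against 6.42% of the windows of all genes tested and 8.29% of all 27305 windows. An E2F site (TTTCCCGC, TTTGGCGC, TTTGCCGC or TTTCGCGC on either strand) was in 21 of 43 windows of DNA replication genes (48.8%) but in 3 of 44 windows of mitosis genes (6.82%), against 5.41% of the windows of genes tested and 3.33% of all windows. A core of the amino acid response element (TGATGNAA) was in 12 of 39 windows of integrated stress response genes (30.8%), against 1.56% and 3.67%. The sterol response element core TCACNCCAC was in 0 of 15 windows of cholesterol synthesis genes, against 1.06% and 1.15%, which says only that these letters are not in these windows. Such matches are descriptions of sequence and not sites of binding.

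The 250 bases before the gene start are shown for 6 interferon-stimulated genes that were lower under ND-646 than under bleomycin, 5′ to 3′ on the strand of the gene, with the ISRE core in capitals and overlapping matches drawn as 1 stretch. They lie at chr1:1013247-1013496 (plus strand) for ISG15, chr1:27672193-27672442 (minus) for IFI6, chr11:313790-314039 (plus) for IFITM1, chr12:112938224-112938473 (plus) for OAS3, chr19:17405631-17405880 (minus) for BST2 and chr3:122680589-122680838 (plus) for PARP14, all on GRCh38.p14. ISG15, IFITM1, BST2 and PARP14 each hold 1 capital stretch, OAS3 holds 2 and IFI6 holds 3.
ISG15: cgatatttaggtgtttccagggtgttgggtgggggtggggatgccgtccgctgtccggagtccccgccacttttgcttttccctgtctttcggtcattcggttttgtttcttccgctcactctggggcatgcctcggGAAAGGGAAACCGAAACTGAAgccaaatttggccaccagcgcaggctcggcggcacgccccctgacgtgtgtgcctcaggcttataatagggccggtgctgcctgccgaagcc
IFI6: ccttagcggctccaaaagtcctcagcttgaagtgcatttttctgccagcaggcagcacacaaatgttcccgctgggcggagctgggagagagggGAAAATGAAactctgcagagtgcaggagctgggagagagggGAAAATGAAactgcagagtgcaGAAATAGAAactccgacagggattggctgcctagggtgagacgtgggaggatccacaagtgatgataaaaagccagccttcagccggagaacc
IFITM1: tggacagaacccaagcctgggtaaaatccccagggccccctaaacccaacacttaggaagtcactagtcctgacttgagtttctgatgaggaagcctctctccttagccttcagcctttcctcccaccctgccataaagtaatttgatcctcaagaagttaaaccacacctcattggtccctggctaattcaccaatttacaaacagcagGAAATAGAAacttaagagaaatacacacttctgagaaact
OAS3: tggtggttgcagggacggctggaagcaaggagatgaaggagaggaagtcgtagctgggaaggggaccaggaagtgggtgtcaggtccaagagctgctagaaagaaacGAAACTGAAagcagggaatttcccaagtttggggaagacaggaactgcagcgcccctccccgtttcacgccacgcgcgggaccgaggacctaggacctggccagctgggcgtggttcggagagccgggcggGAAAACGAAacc
BST2: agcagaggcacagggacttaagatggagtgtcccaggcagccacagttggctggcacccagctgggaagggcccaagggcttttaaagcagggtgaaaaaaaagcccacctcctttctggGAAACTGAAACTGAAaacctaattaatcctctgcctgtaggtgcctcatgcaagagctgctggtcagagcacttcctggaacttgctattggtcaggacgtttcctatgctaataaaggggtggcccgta
PARP14: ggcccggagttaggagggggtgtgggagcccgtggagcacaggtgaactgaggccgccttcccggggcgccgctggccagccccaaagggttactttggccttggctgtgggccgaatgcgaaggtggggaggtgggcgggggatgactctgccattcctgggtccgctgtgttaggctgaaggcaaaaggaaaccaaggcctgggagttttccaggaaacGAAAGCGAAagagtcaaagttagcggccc

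The same stretch is shown for E2F2, at chr1:23531234-23531483 (minus strand), and RFC3, at chr13:33817899-33818148 (plus strand), replication genes that were lower under ND-646, with the E2F site in capitals.
E2F2: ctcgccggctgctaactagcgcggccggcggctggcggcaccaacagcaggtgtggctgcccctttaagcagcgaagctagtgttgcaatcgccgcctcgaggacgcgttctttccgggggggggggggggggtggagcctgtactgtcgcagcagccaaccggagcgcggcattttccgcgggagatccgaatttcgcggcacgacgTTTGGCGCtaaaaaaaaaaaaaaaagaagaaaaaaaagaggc
RFC3: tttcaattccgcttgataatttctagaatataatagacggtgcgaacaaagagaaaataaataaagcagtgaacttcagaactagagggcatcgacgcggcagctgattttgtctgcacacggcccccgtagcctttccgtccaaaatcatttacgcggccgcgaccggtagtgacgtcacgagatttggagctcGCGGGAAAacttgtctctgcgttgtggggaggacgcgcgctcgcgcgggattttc

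Enzymes of cholesterol synthesis were the group furthest on the higher side under ND-646. Of 20 genes of the pathway, all of them tested, 10 were called higher and 0 lower (background 1.48% and 3.62%), the median log2 fold change was 1.17 against 0.01 over all genes, and all 20 were on the positive side. Farnesyl diphosphate synthase (FDPS), which makes the last common building block of sterols and protein prenyl groups, was at 1361, 361 and 681 CPM in the ND-646 libraries and at 208, 157 and 171 CPM under bleomycin (log2 fold change 2.16 ± 0.42 SE, adjusted p = 0.0207). All 3 ND-646 values lay above all 3 bleomycin values, as in 2259 of the 13745 genes tested, and ND-646 replicate 1 was the highest. The decarboxylase MVD, one step earlier in the mevalonate arm, was at 199.7, 61.4 and 108 CPM under ND-646 and 42.3, 34.5 and 34.5 CPM under bleomycin (log2 fold change 1.72 ± 0.37 SE, adjusted p = 0.0291). MSMO1, which removes methyl groups from the sterol ring, was at 629, 286 and 444 CPM under ND-646 and 150, 152 and 130.4 CPM under bleomycin (log2 fold change 1.65 ± 0.27 SE, adjusted p = 0.0109). Lanosterol synthase (LSS), which closes the ring, was at 242, 144 and 253 CPM under ND-646 and 76.6, 59.6 and 79.9 CPM under bleomycin (log2 fold change 1.56 ± 0.23 SE, adjusted p = 0.0081) and was called in all 6 fits without 1 library.

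Against untreated day-7 cells, 9 of the 20 were called higher under ND-646 and 0 under bleomycin (background 8.03% and 8.19%), with median log2 fold changes of 1.01 and -0.11. FDPS was at 193 ± 10.4 CPM (SD, n = 3) in those cells, with log2 fold changes of 2.05 ± 0.41 under ND-646 and -0.10 ± 0.11 (not called) under bleomycin. The pathway's count was sensitive to single libraries: without bleomycin replicate 1, 2 or 3 it was 2, 3 and 1, and without ND-646 replicate 1 or 3 it was 6. All 20 genes stayed positive in each of these fits, with medians between 0.86 and 1.41, the lowest without ND-646 replicate 1. FDPS kept its call in 3 of the 6 fits (lost without each bleomycin library).

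Genes that sense, import and export sterols were the next list. Of 19 tested, 8 were called higher and 0 lower (background 1.48% and 3.62%), with a median of 0.53. SREBF1, which encodes SREBP-1, the main driver of fatty acid synthesis genes, was at 3076, 2351 and 3134 CPM under ND-646 and 859, 703 and 857 CPM under bleomycin (log2 fold change 1.82 ± 0.20 SE, adjusted p = 0.00266). SREBF2, its sterol-oriented relative, was at 603, 497 and 614 CPM under ND-646 and 462, 363 and 376 CPM under bleomycin and did not pass the test (log2 fold change 0.51 ± 0.17 SE, adjusted p = 0.0981). INSIG1, which holds the SREBPs in the endoplasmic reticulum, was at 443, 194 and 329 CPM under ND-646 and 83.9, 106 and 79.1 CPM under bleomycin (log2 fold change 1.84 ± 0.28 SE, adjusted p = 0.00922). The cholesterol carrier STARD4 rose by 1.57 on the log2 scale (adjusted p = 0.00309) and the lysosomal cholesterol carrier NPC2 by 1.21 (adjusted p = 0.0426).

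Of 6 LXR receptors and targets, which send sterol out of the cell, 3 were called higher and 0 lower (background 1.48% and 3.62%), and 4 were on the positive side. The exporter ABCG1 was at 304, 246 and 294 CPM under ND-646 and 62, 80.8 and 56.5 CPM under bleomycin (log2 fold change 2.08 ± 0.18 SE, adjusted p = 0.00187), with day-7 cells at 45.6 ± 2.79 CPM (SD, n = 3). ABCA1, the exporter that loads apolipoproteins, was at 7.48, 18 and 24.3 CPM under ND-646 and 3.56, 5.97 and 5.64 CPM under bleomycin (log2 fold change 1.71 ± 0.41 SE, adjusted p = 0.0406), and ND-646 replicate 1 was here the lowest of the 3. LPCAT3, which puts polyunsaturated chains into phospholipids, rose by 1.12 on the log2 scale (adjusted p = 0.0157). Apolipoprotein APOE, which carries exported sterol, lay the other way without passing the test, at 7.57, 3.29 and 3.23 CPM under ND-646 and 10.7, 10.1 and 8.87 CPM under bleomycin (log2 fold change -1.09 ± 0.34 SE, adjusted p = 0.0902), and the receptor NR1H3 was also on the negative side (log2 fold change -0.60 ± 0.25 SE, adjusted p = 0.179). Of the list, SREBF1, STARD4 and ABCG1 were called in all 6 fits without 1 library, and 3 to 7 members were called in each, 3 of them without bleomycin replicate 3, 4 without replicate 1 and 5 without replicate 2. With the replicate block, 8 members of the list were called higher and 1 lower.

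**Figure D2:**
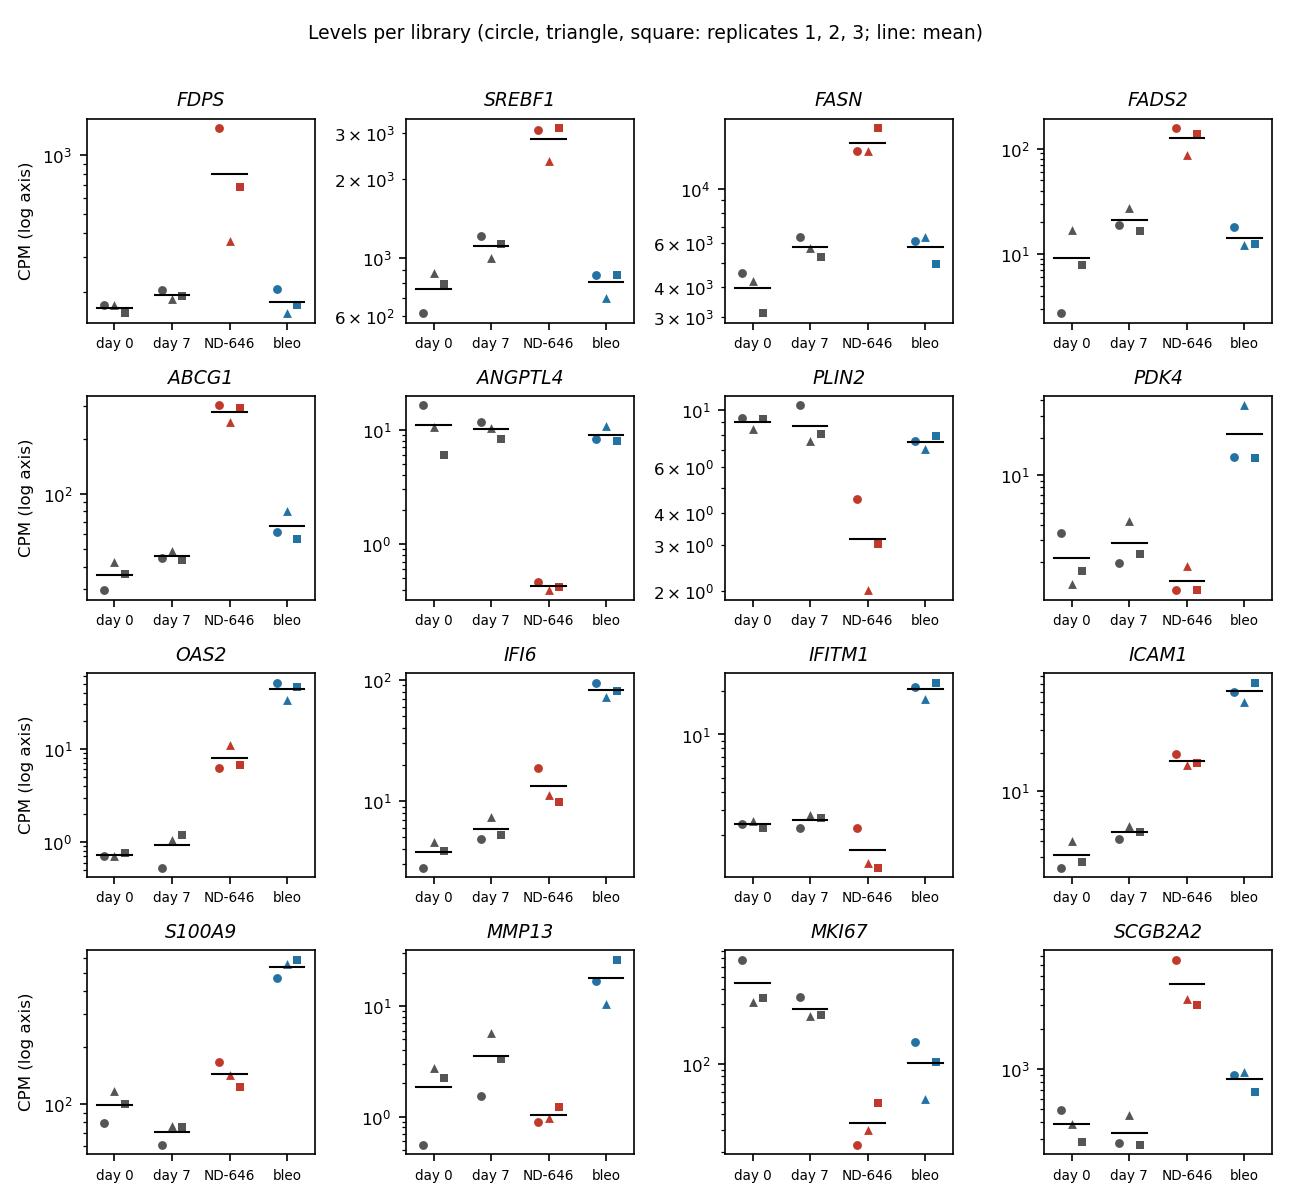
Level in CPM on a log axis of 16 genes in each library of 4 groups: untreated day 0 and day 7 (grey), ND-646 (red) and bleomycin (blue), with circle, triangle and square for replicates 1, 2 and 3 and a line at the mean. FDPS, SREBF1, FASN, FADS2, ABCG1 and SCGB2A2 have all ND-646 libraries above all bleomycin ones, and the other 10 have them below. The 16 were picked from called genes. Of all 13745 genes tested, 2259 have the ND-646 libraries fully above and 2333 fully below.

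The genes of fatty acid synthesis went mostly one way. Of 17 tested, 5 were called higher and 1 lower (background 1.48% and 3.62%), with a median of 0.57. The drug's own targets did not pass the test: ACACA, the cytosolic ACC1 at chr17:35441927-35766927 on GRCh37, was at 168, 215 and 292 CPM under ND-646 and 169, 129 and 154 CPM under bleomycin (log2 fold change 0.57 ± 0.21 SE, adjusted p = 0.138). ACACB, the mitochondrial ACC2 at chr12:109554392-109706031, was at 4.68, 8.83 and 10.6 CPM under ND-646 and 18.9, 6.86 and 14.8 CPM under bleomycin (log2 fold change -0.76 ± 0.40 SE, adjusted p = 0.28). Both groups lay below the 63.3 ± 4.85 CPM (SD, n = 3) of ACACB in day-7 cells, with log2 fold changes of -2.97 ± 0.28 for ND-646 and -2.21 ± 0.29 for bleomycin, both called lower. These RNA values do not measure the activity that the drug blocks.

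FASN at chr17:80036214-80056170, the enzyme that builds palmitate from malonyl-CoA, was at 14290, 14290 and 17650 CPM under ND-646 and 6134, 6362 and 4964 CPM under bleomycin (log2 fold change 1.40 ± 0.22 SE, adjusted p = 0.0102). Its day-7 level was 5806 ± 545 CPM (SD, n = 3), with a log2 fold change of 0.02 ± 0.14 (SE, not called) under bleomycin. SCD, the desaturase that makes oleate, was at 13770, 10800 and 13590 CPM under ND-646 and 5365, 5686 and 4547 CPM under bleomycin (log2 fold change 1.28 ± 0.22 SE, adjusted p = 0.0121). FADS2 at chr11:61560452-61634826, the first desaturase of polyunsaturated fatty acids, had the largest rise but that of SIGLEC6 among the genes named by size, from 18.1, 12.3 and 12.3 CPM under bleomycin to 156, 86.6 and 138 CPM under ND-646 (log2 fold change 3.15 ± 0.27 SE, adjusted p = 0.00187). ACSS2, which makes acetyl-CoA from acetate, and the citrate carrier SLC25A1 rose by 1.31 and 1.20 on the log2 scale (adjusted p = 0.0244 and 0.0463). ATP citrate lyase (ACLY), at 1122, 999 and 1335 CPM under ND-646 and 957, 854 and 966 CPM under bleomycin, did not pass (0.31, adjusted p = 0.295).

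OLAH went the other way. This thioesterase frees medium-chain fatty acids from FASN, and it was at 0.085, 0.679 and 0.21 CPM under ND-646 against 3.26, 3.26 and 4.24 CPM under bleomycin and 3.27 ± 0.683 CPM (SD, n = 3) in day-7 cells (log2 fold change -3.42 ± 0.55 SE, adjusted p = 0.0105). THRSP, a regulator of lipogenesis in no list and named after its values were seen, was at 100.1, 33.8 and 51.5 CPM under ND-646 and 22.6, 14.5 and 14.1 CPM under bleomycin (log2 fold change 1.85 ± 0.38 SE, adjusted p = 0.0258). FADS2 was called in every fit without 1 library. FASN, OLAH and INSIG1 were called in all but the fit without bleomycin replicate 3, and the list then held 1 call, against 2 higher and 1 lower without bleomycin replicate 1.

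Several targets of the PPAR receptors were among the genes with the largest falls. Of 9 tested, 4 were called lower and 0 higher (background 3.62% and 1.48%), the median was -0.98 and 0 were on the positive side. Of 10 genes of mitochondrial fatty acid oxidation 0 were called, with a median of -0.09. ANGPTL4 at chr19:8428173-8439254, a secreted inhibitor of lipoprotein lipase, was at 0.468, 0.393 and 0.421 CPM under ND-646 and 8.34, 10.8 and 7.95 CPM under bleomycin (log2 fold change -4.40 ± 0.28 SE, adjusted p = 0.000788). Against the 10.1 ± 1.61 CPM (SD, n = 3) of day-7 cells it was called lower under ND-646 and not called under bleomycin.

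PDK4 at chr7:95212811-95225828, the kinase that shuts pyruvate dehydrogenase when fat is burned, was different against untreated cells. It was at 1.19, 1.86 and 1.19 CPM under ND-646 and 13.9, 36.4 and 13.8 CPM under bleomycin (log2 fold change -3.92 ± 0.45 SE, adjusted p = 0.00342), and bleomycin was above the 2.86 ± 1.23 CPM (SD, n = 3) of day-7 cells by 2.93 ± 0.44 on the log2 scale. PLIN2, which coats lipid droplets, was at 4.51, 2 and 3.02 CPM under ND-646 and 7.57, 7.09 and 7.95 CPM under bleomycin (log2 fold change -1.26 ± 0.30 SE, adjusted p = 0.0423), a call kept in 1 of 6 fits without 1 library. CPT1A, the carnitine transferase that admits fatty acids to mitochondria, was under 2-fold (log2 fold change -0.98 ± 0.18 SE, adjusted p = 0.0157). The fatty acid carrier FABP5, in no list and named after its values were seen, was at 0.212, 0.143 and 0.175 CPM under ND-646 and 1.38, 0.67 and 1.04 CPM under bleomycin (log2 fold change -2.52 ± 0.44 SE, adjusted p = 0.0142). The mitochondrial carrier SLC25A34, chosen in the same way, was at 0.17, 0.286 and 0.245 CPM under ND-646 and 2.99, 3.67 and 2.99 CPM under bleomycin (log2 fold change -3.75 ± 0.34 SE, adjusted p = 0.00187). ANGPTL4, PDK4 and SLC25A34 were called without any 1 library.

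Interferon-stimulated genes had the lowest median of the gene lists. Of 36 listed, 22 were tested, 0 were called higher and 14 lower (background 3.62%), the median log2 fold change was -1.96 against 0.01 over all genes, and 1 of the 22, ISG20, was on the positive side. OAS2, which makes the 2-5A signal that activates RNase L, was at 6.16, 11 and 6.73 CPM under ND-646 and 51.5, 33.1 and 46.5 CPM under bleomycin (log2 fold change -2.46 ± 0.27 SE, adjusted p = 0.00298). In day-7 cells it was at 0.921 ± 0.344 CPM (SD, n = 3), so that both drugs lay above untreated cells, by 3.13 ± 0.37 for ND-646 and 5.61 ± 0.28 for bleomycin on the log2 scale. PARP14, a mono-ADP-ribosyltransferase, was at 1.91, 5.58 and 2.52 CPM under ND-646 and 21.5, 25.1 and 32.6 CPM under bleomycin (log2 fold change -2.98 ± 0.39 SE, adjusted p = 0.00482), with 0.474 ± 0.171 CPM (SD, n = 3) in day-7 cells. IFI6, which guards the endoplasmic reticulum against flaviviruses, was at 18.9, 11.2 and 9.89 CPM under ND-646 and 95.2, 71.7 and 81.2 CPM under bleomycin (log2 fold change -2.64 ± 0.26 SE, adjusted p = 0.00218).

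IFITM1 at chr11:310041-315272, a membrane protein that blocks viral fusion, had the largest difference of the list. It was at 2.25, 1.29 and 1.19 CPM under ND-646, not called against the 2.54 ± 0.27 CPM (SD, n = 3) of day-7 cells, and at 21.5, 17.7 and 22.9 CPM under bleomycin (log2 fold change -3.73 ± 0.29 SE, adjusted p = 0.00115). UBE2L6, the conjugating enzyme for ISG15, was at 2.29, 2 and 2.03 CPM under ND-646 and 16.8, 15.3 and 13.5 CPM under bleomycin (log2 fold change -2.85 ± 0.21 SE, adjusted p = 0.00115). MX1, a GTPase against RNA viruses, was at 1.32, 2.9 and 1.89 CPM under ND-646 and 15, 8.11 and 14.5 CPM under bleomycin (log2 fold change -2.62 ± 0.36 SE, adjusted p = 0.00559). BST2, which tethers budding virions, was at 3.7, 3.61 and 2.1 CPM under ND-646 and 15.6, 17.4 and 19.8 CPM under bleomycin (log2 fold change -2.50 ± 0.26 SE, adjusted p = 0.00245). OAS1 was not called: at 30.4, 29.4 and 25.4 CPM under ND-646 and 46.8, 37 and 43 CPM under bleomycin it lay under the bleomycin libraries without passing the test (log2 fold change -0.58 ± 0.16 SE, adjusted p = 0.0579), although both drugs were above the 2.95 ± 1.34 CPM (SD, n = 3) of day-7 cells.

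Against day-7 cells, 9 of the 22 were called higher and 1 lower under ND-646 (background 8.03% and 8.22%), with a median log2 fold change of 0.72. Under bleomycin 17 were called higher and 0 lower (background 8.19% and 5.53%), with a median of 3.05. The count of 14 was stable: it lay between 11 (without bleomycin replicate 3) and 15 in the fits without 1 library, with medians between -2.11 and -1.83. Upstream of these genes, 4 of 24 genes of nucleic acid sensing and interferon signalling were lower and 0 higher (background 3.62% and 1.48%), with a median of -0.28. They were the RNA sensors DDX58 (RIG-I), at 7.61, 7.33 and 5.65 CPM under ND-646 and 16.6, 10.4 and 17.1 CPM under bleomycin (log2 fold change -1.11 ± 0.25 SE, adjusted p = 0.0317), and DHX58, the ISGF3 subunit IRF9 and the feedback inhibitor SOCS3. IRF9 was at 26.1, 23.9 and 20.5 CPM under ND-646 and 47.3, 45.9 and 47.3 CPM under bleomycin (adjusted p = 0.0081), just past the 2-fold limit. None of these 4 calls was left without bleomycin replicate 1 or 3, and 1 was left without ND-646 replicate 2 (IRF9) or 3 (DHX58).

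Of 27 tested genes of antigen presentation and immune ligands, 6 were lower and 0 higher (background 3.62% and 1.48%), with a median of -0.44. The immunoproteasome subunits PSMB8 and PSMB9, which cut peptides for MHC class I, were both called. PSMB8 was at 9.9, 7.79 and 5.5 CPM under ND-646 and 29.6, 40 and 39.1 CPM under bleomycin (log2 fold change -2.24 ± 0.24 SE, adjusted p = 0.00279). PSMB9 was at 0.893, 0.572 and 0.561 CPM under ND-646 and 4.98, 3.73 and 6.37 CPM under bleomycin (log2 fold change -2.91 ± 0.34 SE, adjusted p = 0.00355). HLA-B, a class I heavy chain whose reads can be shared with its paralogs, was at 18.8, 14.6 and 12.8 CPM under ND-646 and 27, 36.7 and 39.5 CPM under bleomycin (log2 fold change -1.16 ± 0.21 SE, adjusted p = 0.0161). CD274 (PD-L1), the checkpoint ligand, was at 2.25, 3.15 and 3.3 CPM under ND-646 and 5.38, 5.46 and 9.38 CPM under bleomycin (log2 fold change -1.22 ± 0.30 SE, adjusted p = 0.045), and was called in 1 of 6 fits without 1 library. The peptide pump TAP1 and the class I activator NLRC5 were the other called members. Without ND-646 replicate 2 or 3, or without bleomycin replicate 1, 2 or 3, the list had 3, 2, 3, 3 and 2 calls. The guanylate-binding proteins GBP1 and GBP2 and the dNTP hydrolase SAMHD1, in no list and named after their values were seen, had log2 fold changes of -2.62, -1.83 and -2.99 (adjusted p = 0.00225, 0.0117 and 0.00484). SAMHD1 was at 2.21, 7.4 and 4.17 CPM under ND-646, 40.8, 28.2 and 40.4 CPM under bleomycin and 18.1 ± 2.18 CPM (SD, n = 3) in day-7 cells, which ND-646 was called lower and bleomycin higher than.

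**Figure D3:**
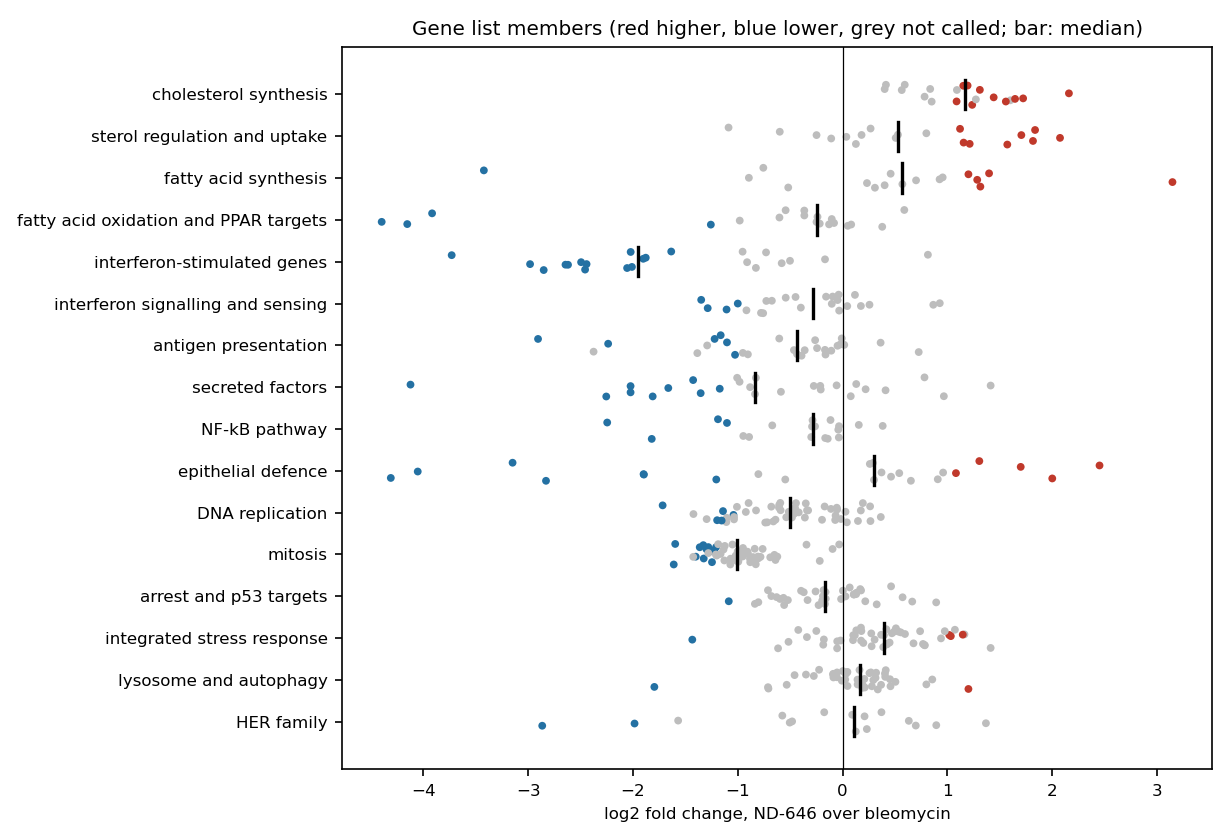
Log2 fold change of ND-646 over bleomycin (horizontal axis) for the tested members of 16 gene lists (rows), 1 point a gene, red if called higher, blue if called lower and grey if not called, with a bar at the median. The medians of cholesterol synthesis (1.17) and interferon-stimulated genes (-1.96) lie furthest from 0, and mitosis genes sit together around -1.01.

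Secreted factors were lower under ND-646 where they passed the test. Of 53 listed, 26 were tested, 0 were called higher and 9 lower (background 1.48% and 3.62%), and the median was -0.83. The collagenase MMP13 at chr11:102813724-102826461 was at 0.893, 0.965 and 1.23 CPM under ND-646 and 17.1, 10.4 and 26.4 CPM under bleomycin (log2 fold change -4.12 ± 0.38 SE, adjusted p = 0.00187), and ND-646 was called lower and bleomycin higher than the 3.53 ± 2.13 CPM (SD, n = 3) of day-7 cells. IGFBP5, which binds insulin-like growth factors, was at 29.4, 47 and 48.7 CPM under ND-646 and 253, 99 and 242 CPM under bleomycin (log2 fold change -2.25 ± 0.36 SE, adjusted p = 0.0103). The urokinase PLAU was at 0.808, 0.751 and 0.701 CPM under ND-646 and 3.16, 2.04 and 3.96 CPM under bleomycin (log2 fold change -2.02 ± 0.34 SE, adjusted p = 0.0118), and the inflammatory cytokine IL32 at 1.91, 1.04 and 0.351 CPM under ND-646 and 4.47, 3.16 and 5.58 CPM under bleomycin (log2 fold change -2.02 ± 0.52 SE, adjusted p = 0.0495). TGFB2, a TGF-beta ligand, was at 19.7, 28.2 and 22.3 CPM under ND-646 and 62.6, 48 and 77.3 CPM under bleomycin (log2 fold change -1.43 ± 0.22 SE, adjusted p = 0.00863). The death ligand TNFSF10, TGFB1, PDGFA and IGFBP7 were the other called members.

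Some secreted factors did not differ in this way. GDF15, a stress cytokine, was at 192, 69 and 86.4 CPM under ND-646 and 36.3, 62.3 and 31.2 CPM under bleomycin without passing the test (log2 fold change 1.41 ± 0.40 SE, adjusted p = 0.0692), and was called with a replicate block (log2 fold change 1.34, adjusted p = 0.024 with the block). Both drugs were called higher than the 3.17 ± 2.03 CPM (SD, n = 3) of day-7 cells. The macrophage factor CSF1 was at 30.6, 25.8 and 30.9 CPM under ND-646 and 30.9, 39.2 and 35 CPM under bleomycin (log2 fold change -0.27 ± 0.16 SE, adjusted p = 0.314). IL6, CXCL8 and CXCL10 were not among the genes listed. All genes listed had a count of 1 or more in each of the 24 libraries. The absence of these 3 therefore does not show that they were silent under either drug. Against day-7 cells, ND-646 called 9 of the 26 higher and 3 lower (background 8.03% and 8.22%). Bleomycin called 15 higher and 0 lower (background 8.19% and 5.53%). The lower count under ND-646 was near its background. The main count was 5 without ND-646 replicate 2 or 3 and 2 without bleomycin replicate 3. It was 6 without bleomycin replicate 1.

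Of 19 genes of the NF-kB pathway, 4 were lower and 0 higher (background 3.62% and 1.48%), with a median of -0.29. All 4 were among its feedback inhibitors and targets and 0 among its 5 subunits. ICAM1, an adhesion receptor for leukocytes, was at 19.4, 16 and 16.5 CPM under ND-646, 60.6, 50.4 and 71.6 CPM under bleomycin and 4.71 ± 0.574 CPM (SD, n = 3) in day-7 cells (log2 fold change -1.82 ± 0.18 SE, adjusted p = 0.00218). TNFAIP2, a gene induced by tumour necrosis factor, was at 5.14, 7.29 and 7.5 CPM under ND-646 and 26.1, 29.5 and 38.8 CPM under bleomycin (log2 fold change -2.25 ± 0.23 SE, adjusted p = 0.00225). The feedback inhibitor TNFAIP3 (A20) and the mitochondrial dismutase SOD2 fell by 1.10 and 1.19 on the log2 scale (adjusted p = 0.0295 and 0.0128). Without bleomycin replicate 3, 2 of the 4 calls were left.

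Genes of epithelial defence went both ways: of 23 tested, 5 were higher and 7 lower (background 1.48% and 3.62%), with a median of 0.30. On the lower side, the acute phase protein SAA1 at chr11:18287807-18291524 was at 0.595, 0.608 and 0.281 CPM under ND-646 and 7.63, 7.57 and 14.1 CPM under bleomycin (log2 fold change -4.31 ± 0.41 SE, adjusted p = 0.00203). S100A7 (psoriasin) was at 0.638, 0.357 and 0.351 CPM under ND-646 and 5.31, 6.96 and 9.87 CPM under bleomycin (log2 fold change -4.05 ± 0.38 SE, adjusted p = 0.00187). The calprotectin subunits moved together: S100A8 was at 7.52, 3.47 and 3.54 CPM under ND-646 and 40.8, 35.1 and 51.9 CPM under bleomycin (log2 fold change -3.15 ± 0.33 SE, adjusted p = 0.00246). S100A9 was at 168, 143 and 124 CPM under ND-646 and 469, 553 and 586 CPM under bleomycin (log2 fold change -1.90 ± 0.17 SE, adjusted p = 0.00187). The groups of all 4 genes were fully apart, but the 4 were picked for large differences. Of all 13745 genes tested, 2333 had the ND-646 libraries fully below the bleomycin ones. PIGR, which carries antibodies across epithelia, was at 11.3, 39.7 and 22.1 CPM under ND-646 and 58.2, 305 and 155 CPM under bleomycin (log2 fold change -2.83 ± 0.62 SE, adjusted p = 0.0308), with a wide spread in both groups and a call that was lost without bleomycin replicate 2 or 3 or ND-646 replicate 3. Complement C1S and C1R, in no list and named after their values were seen, had log2 fold changes of -3.44 and -2.46 (adjusted p = 0.00418 and 0.00246).

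On the higher side, S100P at chr4:6695605-6698897, a calcium-binding protein of many carcinomas, was at 1295, 426 and 511 CPM under ND-646 and 145, 142 and 119 CPM under bleomycin (log2 fold change 2.45 ± 0.40 SE, adjusted p = 0.0111). Its ND-646 replicate 1 value stood far over the other two. The adhesion protein CEACAM5 was at 48.7, 59.9 and 64.2 CPM under ND-646 and 11.8, 17.4 and 13.7 CPM under bleomycin (adjusted p = 0.00213), and CEACAM6 at 474, 522 and 448 CPM under ND-646 and 241, 223 and 215 CPM under bleomycin (log2 fold change 1.08 ± 0.14 SE, adjusted p = 0.00484). Their paralog CEACAM1 was lower, at 3.74, 4.08 and 4.49 CPM under ND-646 and 12.8, 15.3 and 17.7 CPM under bleomycin (log2 fold change -1.90 ± 0.21 SE, adjusted p = 0.00279). Reads of such paralogs can be shared between them. LCN2, which binds bacterial siderophores, was at 144, 118 and 96.4 CPM under ND-646 and 17.5, 61.3 and 31.2 CPM under bleomycin (log2 fold change 1.70 ± 0.40 SE, adjusted p = 0.0379). Its day-7 level was 0.62 ± 0.519 CPM (SD, n = 3), and both drugs were called higher than it. Without bleomycin replicate 3, 2 members were called higher and 5 lower, and without replicate 1, 3 higher and 7 lower.

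Genes of cell division were lower under both drugs than in untreated cells, and those that passed the test between the drugs were lower under ND-646. Against day-7 cells, 52 of 55 mitosis genes were called lower under ND-646 and 51 under bleomycin (background 8.22% and 5.53%), with median log2 fold changes of -2.51 and -1.47. Between the drugs, 12 of the 55 were called lower and 0 higher (background 3.62% and 1.48%), the median was -1.01, and 0 were on the positive side. MKI67, which marks cycling cells, was at 22.9, 30.1 and 49.4 CPM under ND-646, 151, 52.6 and 105 CPM under bleomycin, 278 ± 57.5 CPM in day-7 and 444 ± 206 CPM in day-0 cells (SD, n = 3; log2 fold change -1.60 ± 0.40 SE, adjusted p = 0.0455). KNL1, a scaffold of the kinetochore, was at 8.2, 9.51 and 11.5 CPM under ND-646 and 37.8, 18.4 and 32.7 CPM under bleomycin (log2 fold change -1.61 ± 0.28 SE, adjusted p = 0.0132). The checkpoint kinase BUB1B was at 9.56, 8.94 and 12.8 CPM under ND-646 and 33.9, 17 and 31.3 CPM under bleomycin (log2 fold change -1.40 ± 0.28 SE, adjusted p = 0.0226). Topoisomerase TOP2A was at 150.1, 118 and 188 CPM under ND-646 and 488, 236 and 415 CPM under bleomycin (log2 fold change -1.32 ± 0.28 SE, adjusted p = 0.028).

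Bleomycin replicate 2 lay nearest to the ND-646 libraries in these genes, with MKI67, KNL1 and TOP2A each lowest there among the bleomycin libraries. The count of called mitosis genes moved with it: it was 29 without bleomycin replicate 2, 0 without replicate 1 or 3, 2 and 6 without ND-646 replicate 2 and 3, and 20 without ND-646 replicate 1. With the replicate number as a replicate block it was 23, and with DESeq2 it was 27. The median stayed between -1.29 and -0.73 in the fits without 1 library, and 1 gene at most was on the positive side.

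DNA replication genes had fewer calls between the drugs. Against day-7 cells, 45 of 52 were lower under ND-646 and 41 under bleomycin (background 8.22% and 5.53%). Between the drugs, 5 were lower and 0 higher (background 3.62% and 1.48%), with a median of -0.50. The called genes were E2F2, a cell-cycle transcription factor, at 2.42, 2.29 and 2.42 CPM under ND-646 and 11, 3.32 and 9.08 CPM under bleomycin (log2 fold change -1.72 ± 0.41 SE, adjusted p = 0.041), its repressor relative E2F8, the clamp loader subunit RFC3 at 9.31, 14.4 and 13.5 CPM under ND-646 and 31.5, 20.2 and 30 CPM under bleomycin (log2 fold change -1.14 ± 0.24 SE, adjusted p = 0.026), the cohesion factor DSCC1 and the helicase subunit MCM2. MCM2 was at 28.2, 29.2 and 29.2 CPM under ND-646 and 75.5, 40.3 and 61.7 CPM under bleomycin (log2 fold change -1.04 ± 0.22 SE, adjusted p = 0.0279) and was under 2-fold with the replicate block. Without bleomycin replicate 1 or 3 or ND-646 replicate 3, 0 were called, without ND-646 replicate 2, 1, and without bleomycin replicate 2, 13. The E2F sites of E2F2 and RFC3 are among those shown above. Of 33 DNA repair genes, 2 were lower, a count near the 3.62% of all genes tested, but the median was -0.60 and only 4 were on the positive side. The 2 called genes were XRCC2 of homologous recombination (log2 fold change -1.53 ± 0.38 SE, adjusted p = 0.0442) and the break adaptor MDC1 (log2 fold change -1.11 ± 0.24 SE, adjusted p = 0.0308). The lower count was 7 with the replicate block, 8 with DESeq2 and 9 at an unadjusted p under 0.05 with a 2-fold change. It was 0 without ND-646 replicate 2 or bleomycin replicate 1 or 3, 1 without ND-646 replicate 3 and 10 without bleomycin replicate 2.

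Genes that hold cells in arrest had a single call between the drugs, which does not show their levels to be equal. Of 37 genes of arrest and p53 targets, 0 were higher and 1 lower (background 1.48% and 3.62%), with a median of -0.17. CDKN1A (p21), a CDK inhibitor, was at 86.5, 30.5 and 49.2 CPM under ND-646 and 33.7, 31.6 and 39 CPM under bleomycin (log2 fold change 0.66 ± 0.33 SE, adjusted p = 0.246), both called higher than the 11.9 ± 2.69 CPM (SD, n = 3) of day-7 cells. CDKN1B (p27) was at 43.5, 49.1 and 50.9 CPM under ND-646 and 38.6, 46.9 and 37.4 CPM under bleomycin (log2 fold change 0.22 ± 0.15 SE, adjusted p = 0.405), and CDKN2A at 8.84, 7.11 and 5.5 CPM under ND-646 and 8.88, 6.42 and 9.72 CPM under bleomycin (log2 fold change -0.23 ± 0.26 SE, adjusted p = 0.613). The called gene was CDKN2B (p15), at 19.4, 26.2 and 27.8 CPM under ND-646 and 47.5, 35.9 and 71.9 CPM under bleomycin (log2 fold change -1.09 ± 0.26 SE, adjusted p = 0.0426), a call kept in 1 of 6 fits without 1 library. Lamin B1 (LMNB1), whose loss is a mark of senescence, was at 15.4, 14.3 and 16.3 CPM under ND-646 and 21.5, 10.5 and 19.9 CPM under bleomycin against 75.6 ± 7.87 CPM (SD, n = 3) in day-7 cells, with no call between the drugs (log2 fold change -0.18 ± 0.26 SE, adjusted p = 0.703). GLB1, the lysosomal beta-galactosidase behind the usual senescence stain, was at 243, 210.3 and 219 CPM under ND-646 and 196, 187 and 195 CPM under bleomycin (log2 fold change 0.21 ± 0.13 SE, adjusted p = 0.348).

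**Figure D4:**
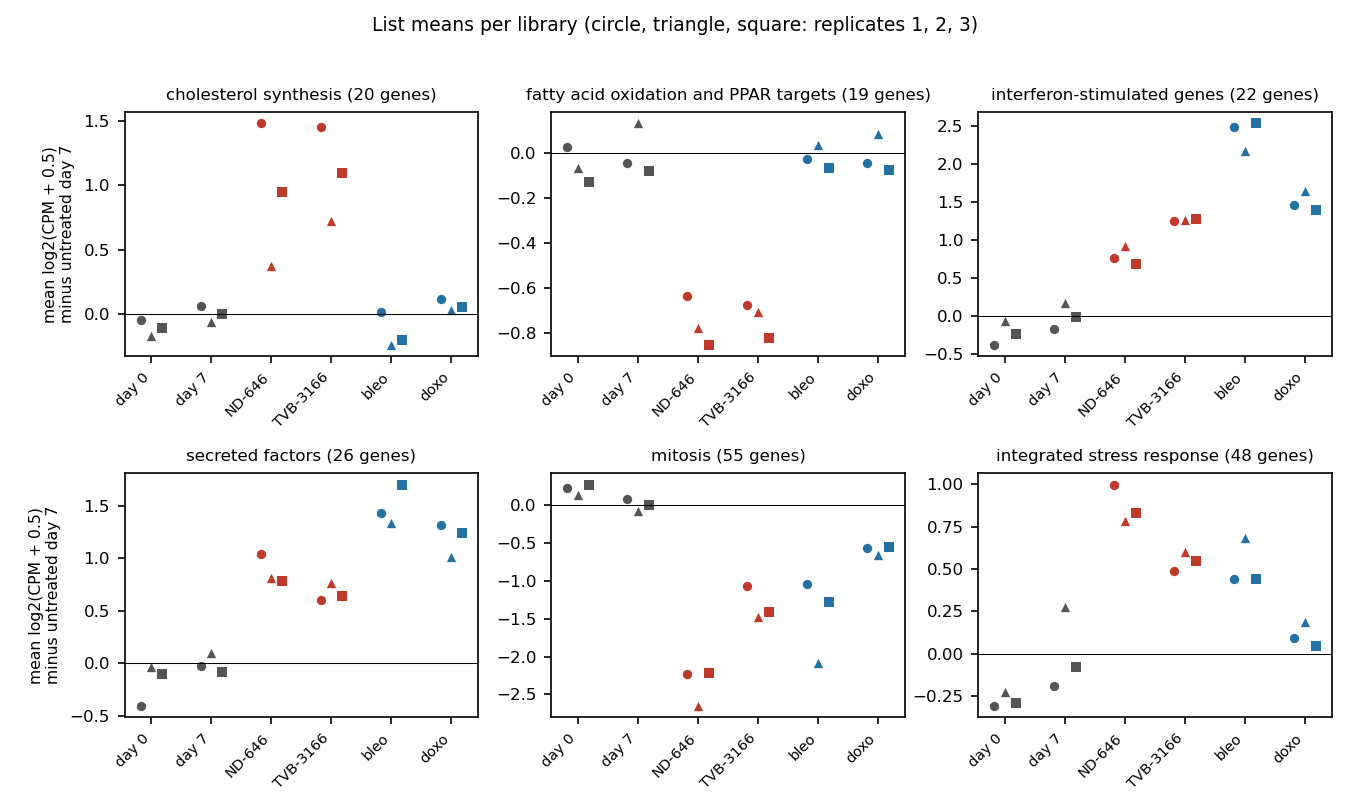
Mean of log2(CPM + 0.5) over the tested members of 6 gene lists, relative to the mean of the untreated day-7 libraries, in each library of 6 groups (circle, triangle and square for replicates 1, 2 and 3; untreated grey, ND-646 and TVB-3166 red, bleomycin and doxorubicin blue). The cholesterol synthesis mean runs from 0.38 to 1.48 in the ND-646 libraries and from -0.24 to 0.02 in the bleomycin ones, and the mitosis mean of bleomycin replicate 2 (-2.09) lies nearest to the ND-646 libraries (-2.65 to -2.22).

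Genes of the integrated stress response, the programme in which ATF4 supplies amino acids, were more often above than below bleomycin. Of 48, 3 were higher and 1 lower (background 1.48% and 3.62%), with a median of 0.39 and 37 on the positive side. Against day-7 cells 22 were called higher under ND-646 and 8 under bleomycin (background 8.03% and 8.19%). ATF4 was at 1102, 607 and 623 CPM under ND-646 and 366, 437 and 344 CPM under bleomycin (log2 fold change 1.02 ± 0.25 SE, adjusted p = 0.0447), was called in 0 of 6 fits without 1 library, and was under 2-fold with the replicate block. PCK2, the mitochondrial carboxykinase, was at 297, 182 and 202 CPM under ND-646 and 89.8, 125 and 92 CPM under bleomycin (log2 fold change 1.15 ± 0.22 SE, adjusted p = 0.0206), and the lipoprotein receptor VLDLR at 68, 55.1 and 70.1 CPM under ND-646 and 28.3, 37.1 and 28.6 CPM under bleomycin (log2 fold change 1.03 ± 0.17 SE, adjusted p = 0.0118). Glycine decarboxylase (GLDC) was lower, at 7.69, 8.33 and 10.3 CPM under ND-646 and 27.7, 16.3 and 26.8 CPM under bleomycin (log2 fold change -1.43 ± 0.24 SE, adjusted p = 0.012). The higher count was 5 with the replicate block, 7 without bleomycin replicate 2, 1 without ND-646 replicate 3 and 0 without bleomycin replicate 1 or 3. It was 2 without ND-646 replicate 1. Of 20 chaperones and sensors of the unfolded protein response, edgeR called 0, with a median of 0.21, and 0 were called with DESeq2 or at an unadjusted p under 0.05 with a 2-fold change.

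Among 23 cell death genes, 3 were higher and 0 lower (background 1.48% and 3.62%). BBC3 (PUMA), a BH3-only killer protein, was at 28.9, 16.1 and 19.9 CPM under ND-646 and 8.31, 12 and 7.92 CPM under bleomycin (log2 fold change 1.20 ± 0.27 SE, adjusted p = 0.0318). BIK, of the same kind, was at 10.8, 10.3 and 10.7 CPM under ND-646 and 3.6, 4.12 and 5.42 CPM under bleomycin (log2 fold change 1.27 ± 0.22 SE, adjusted p = 0.0141). RIPK3, the kinase of necroptosis, was at 2.46, 1.93 and 2.1 CPM under ND-646 and 0.74, 0.926 and 0.823 CPM under bleomycin (log2 fold change 1.37 ± 0.29 SE, adjusted p = 0.0267), with 2.47 ± 0.122 CPM (SD, n = 3) in day-7 cells, under which bleomycin alone was called lower. The list had 1 call without ND-646 replicate 3 or bleomycin replicate 3 and 0 without bleomycin replicate 1. Of 45 lysosome and autophagy genes, 1 was higher and 1 lower, a share near that of all genes tested (1.48% and 3.62%). The tetraspanin CD63 was higher, at 879, 435 and 474 CPM under ND-646 and 264, 254 and 256 CPM under bleomycin (log2 fold change 1.20 ± 0.26 SE, adjusted p = 0.031), and cathepsin S (CTSS) lower, at 2.89, 3.29 and 3.65 CPM under ND-646 and 7.36, 11 and 15.6 CPM under bleomycin (log2 fold change -1.80 ± 0.30 SE, adjusted p = 0.0118). The CD63 call was lost without ND-646 replicate 1 or any 1 bleomycin library, and the CTSS call without bleomycin replicate 3.

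In the HER family list, 0 of 16 genes were higher and 2 lower (background 1.48% and 3.62%), and ERBB2 did not pass (log2 fold change 0.37 ± 0.22 SE, adjusted p = 0.328). The EGFR ligand HBEGF was at 3.44, 1.36 and 1.75 CPM under ND-646 and 6.36, 8.88 and 10.4 CPM under bleomycin (log2 fold change -1.99 ± 0.38 SE, adjusted p = 0.0184), a call lost without ND-646 replicate 2 or 3 or bleomycin replicate 2 or 3. PPP1R1B, a neighbour of ERBB2 on 17q12, was at 2.42, 2.07 and 1.65 CPM under ND-646 and 15.5, 14.7 and 14.4 CPM under bleomycin (log2 fold change -2.87 ± 0.22 SE, adjusted p = 0.00115), with 15.2 ± 1.94 CPM (SD, n = 3) in day-7 cells. Of 45 cytoskeleton and matrix genes 0 were higher and 5 lower (background 1.48% and 3.62%), among them the laminin chains LAMA3 and LAMB3, the laminin receptor subunit ITGA6, and filamin FLNA. LAMB3 was at 13.1, 13.3 and 10.7 CPM under ND-646 and 38.4, 35.6 and 50.3 CPM under bleomycin (log2 fold change -1.75 ± 0.19 SE, adjusted p = 0.00274). That list had 2 calls without bleomycin replicate 1 and 1 without replicate 3.

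Luminal identity genes had 2 calls in each direction of 27 tested (background 1.48% and 3.62%), the hair keratins KRT81 and KRT86 higher (1.36 and 1.52, adjusted p = 0.0269 and 0.0176) and KRT80 and claudin CLDN1 lower (-1.09 and -1.22, adjusted p = 0.00844 and 0.0426). Those hair keratins are near-identical paralogs, and their split of reads is uncertain. Without bleomycin replicate 1, 2 or 3, 0 of the list were called higher, and 1, 2 and 0 lower, and without ND-646 replicate 1 it was 1 higher and 3 lower. With ND-646 replicate 2 or 3 left out, 2 were higher and 1 lower. Endothelial markers were lower: CDH5 was at 9.48, 14.1 and 11.8 CPM under ND-646 and 33.5, 26.5 and 44.3 CPM under bleomycin (log2 fold change -1.57 ± 0.23 SE, adjusted p = 0.0082) and VWF at 0.085, 0.0715 and 0.14 CPM under ND-646 and 1.01, 0.766 and 0.823 CPM under bleomycin (log2 fold change -3.07 ± 0.44 SE, adjusted p = 0.00696), while the third, PECAM1, was not listed in the table. Against day-7 cells, 1 of these markers was tested under ND-646 and was called higher (log2 fold change 1.58). Under bleomycin 2 were tested and both were called higher (median 2.135). The part of these markers in other results was not tested. In the oxidative and xenobiotic list, 1 of 25 genes was lower, a share near the 3.62% of all genes tested. It was CYP1A2, at 0.553, 0.643 and 0.526 CPM under ND-646 and 3.6, 4.28 and 4.24 CPM under bleomycin (log2 fold change -2.81 ± 0.28 SE, adjusted p = 0.00218). Its neighbour CYP1A1, an aryl hydrocarbon receptor target, was at 888, 1230 and 884 CPM under ND-646 and 699, 1103 and 870 CPM under bleomycin with no call (log2 fold change 0.16 ± 0.22 SE, adjusted p = 0.688). The bleomycin hydrolase BLMH, which inactivates that drug, was at 116, 87.3 and 82.4 CPM under ND-646 and 82.6, 69.8 and 85.7 CPM under bleomycin (log2 fold change 0.26 ± 0.17 SE, adjusted p = 0.389). In ribosome biogenesis 0 of 26 genes were called (0 also with DESeq2 and at an unadjusted p), in histones 1 of 19 (H2BC21, lower), and in glycolysis and pyruvate use PDP1 was higher and PDK2 lower of 31. The histone and glycolysis counts were near the shares of all genes tested (1.48% higher and 3.62% lower). The calls of H2BC21, PDP1 and PDK2 were each kept in 1 of 6 fits without 1 library, the one without ND-646 replicate 1.

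The 12 genes with the largest rises, among those with a mean of at least 5 CPM in the higher group and no overlap between groups, included several outside these lists. SIGLEC6, a sialic acid-binding lectin at chr19:52021073-52035110, was at 7.14, 5.4 and 9.64 CPM under ND-646 and 1.58, 0.351 and 0.487 CPM under bleomycin (log2 fold change 3.19 ± 0.53 SE, adjusted p = 0.0116), with 13.1 ± 6.83 CPM (SD, n = 3) in day-7 cells. Against those cells it was called lower under bleomycin (log2 fold change -4.03 ± 0.58 SE, adjusted p = 0.000753) and not called under ND-646 (-0.83 ± 0.42 SE, adjusted p = 0.159). MT2A at chr16:56642496-56643409, a metallothionein that binds zinc and copper, was at 336, 121 and 133 CPM under ND-646 and 28, 20.7 and 26.4 CPM under bleomycin (log2 fold change 2.97 ± 0.39 SE, adjusted p = 0.00518). Its relative MT1X at chr16:56716382-56718108, with which it may share reads, was at 48.8, 19.2 and 22 CPM under ND-646 and 6.02, 5.11 and 5 CPM under bleomycin (log2 fold change 2.47 ± 0.36 SE, adjusted p = 0.00738). In both, ND-646 replicate 1 was the highest library. Against day-7 cells both were called lower under bleomycin, with log2 fold changes of -1.91 ± 0.12 and -2.74 ± 0.15 (SE), and neither was called under ND-646. KLF2, a Kruppel-like transcription factor, was at 15.1, 5.72 and 8.77 CPM under ND-646 and 1.68, 0.83 and 1.07 CPM under bleomycin (log2 fold change 3.04 ± 0.43 SE, adjusted p = 0.00658).

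Mammary secretory genes were in the same set. SCGB2A2 (mammaglobin A) at chr11:62037630-62040632 was at 6586, 3343 and 3003 CPM under ND-646, 898, 953 and 673 CPM under bleomycin and 334 ± 102 CPM (SD, n = 3) in day-7 cells (log2 fold change 2.35 ± 0.33 SE, adjusted p = 0.00644), and both drugs were called higher than untreated cells. PIP, another secreted marker of apocrine breast tissue, was at 17.6, 12.2 and 11.4 CPM under ND-646 and 3.4, 2.43 and 2.41 CPM under bleomycin (log2 fold change 2.31 ± 0.26 SE, adjusted p = 0.00316). The secretoglobins SCGB1D2 and SCGB2A1, named after their values were seen, had log2 fold changes of 1.99 ± 0.36 and 1.69 ± 0.33 (SE, adjusted p = 0.0157 and 0.0217). The sialyltransferase ST6GALNAC2, BEX2, SGSM1 and the tetraspanin TSPAN1 complete the 12, with log2 fold changes between 2.21 and 2.60.

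The largest fall of all was in GJA5 (connexin 40), a gap junction protein, at chr1:147228332-147245466 on GRCh37 like the other positions given for single genes. It was at 0.638, 0.929 and 0.982 CPM under ND-646, 51.2, 36.4 and 48.8 CPM under bleomycin and 39.8 ± 7.69 CPM (SD, n = 3) in day-7 cells (log2 fold change -5.73 ± 0.25 SE, adjusted p = 6.61e-05), and against day-7 cells it was called lower under ND-646 and not called under bleomycin. The vitamin D hydroxylase CYP24A1 was at 1.45, 3.86 and 3.12 CPM under ND-646 and 12.8, 49.4 and 22.9 CPM under bleomycin (log2 fold change -3.33 ± 0.54 SE, adjusted p = 0.0105), the acute phase protein ORM1 at 1.02, 0.393 and 0.491 CPM under ND-646 and 5.41, 6.96 and 10.3 CPM under bleomycin (log2 fold change -3.59 ± 0.42 SE, adjusted p = 0.00364), the homeobox gene NKX1-2 at 0.425, 0.751 and 0.491 CPM under ND-646 and 8.81, 7.6 and 9.75 CPM under bleomycin (log2 fold change -3.96 ± 0.30 SE, adjusted p = 0.00115), and CCDC3, a secreted protein of fat and endothelium, at 0.723, 0.179 and 0.386 CPM under ND-646 and 6.12, 4.02 and 5.48 CPM under bleomycin (log2 fold change -3.62 ± 0.45 SE, adjusted p = 0.00444). ORM1 has a near-identical neighbour, ORM2, with a log2 fold change of -3.55 ± 0.48 (SE), and their split of reads is uncertain. Of all 24 genes with the largest changes, 20 were called in each fit without 1 library. SIGLEC6, MT1X, S100P and TSPAN1 lost their call without bleomycin replicate 3.

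TVB-3166 against doxorubicin gave a comparison of the same kind, an inhibitor of fatty acid synthesis against a DNA-damaging drug, in 6 libraries that the main comparison did not use. Of the 203 genes higher under ND-646, all tested there, 110 (54.2%) were called higher, 0 lower and 199 (98.0%) were on the positive side, with a median log2 fold change of 1.07, against a background of 3.06% called higher. Of the 498 lower genes, 318 (63.9%) were called lower against a background of 5.89%, 2 were called higher, and 478 of the 496 tested there were on the negative side, with a median of -1.26. Seen from the other pair, 25.9% of its 424 higher genes and 39.0% of its 816 lower genes were called in the same direction between ND-646 and bleomycin. All 24 genes with the largest changes were called in the same direction there. GJA5 was at 1.44, 1.39 and 0.786 CPM under TVB-3166 and 32.7, 30.8 and 37 CPM under doxorubicin (log2 fold change -4.79 ± 0.18 SE, adjusted p = 1.08e-08), and ANGPTL4 at 0.335, 0.474 and 0.308 and 10.2, 13.2 and 9.52 CPM (-4.86 ± 0.24 SE, adjusted p = 4.89e-08).

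The lipid lists had like counts in both pairs. Of the 20 cholesterol synthesis genes, 10 were higher under TVB-3166 than under doxorubicin and 0 lower (background 3.06% and 5.89%), with a median of 1.05. FDPS was at 1157, 494 and 719.9 CPM and 183, 186 and 163 CPM, and FASN had a log2 fold change of 1.17 ± 0.17 (SE, adjusted p = 0.000139). Of the 9 PPAR targets, 5 were lower, with a median of -1.41. Mitosis genes were lower in 11 of 55, with a median of -0.78, and secreted factors lower in 9 and higher in 2 of 26.

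Interferon-stimulated genes had fewer calls in that pair. Of the 22 interferon-stimulated genes, 3 were higher and 4 lower under TVB-3166 against doxorubicin (background 3.06% and 5.89%), with a median of -0.43. OAS2 was at 23.1, 28.5 and 23.1 CPM under TVB-3166 and 11.2, 16.1 and 10.1 CPM under doxorubicin, higher in the enzyme inhibitor in all 3 libraries (adjusted p = 0.000301), where ND-646 had been lower than bleomycin. A single fit of the 12 libraries tested the difference between the pairs for each gene, a test chosen after the values were seen. It called 36 of 13988 genes (0.257%), of which 8 were interferon genes of the lists: OAS1, OAS2, OAS3, IFI6, IFITM1, BST2, IRF7 and IRF9, all more negative between ND-646 and bleomycin. For OAS2 the difference was -3.44 ± 0.35, adjusted p = 0.000753, and for IFI6 -2.68 ± 0.29, adjusted p = 0.00128 (log2, SE). Of the genes of the 4 lipid lists, 0 of 75 were called. With 0.257% called over all genes, that count does not show lipid genes to be alike in the pairs. The doses and the DNA-damaging drugs differ between the pairs, and the mean of interferon-stimulated genes in log2(CPM + 0.5), relative to day-7 cells, ran from 2.17 to 2.53 under bleomycin and from 1.39 to 1.64 under doxorubicin, against 0.68 to 0.92 under ND-646 and 1.24 to 1.28 under TVB-3166. The number of called differences depended on single libraries, from 12 without doxorubicin replicate 1 to 175 without ND-646 replicate 1, with 5 and 16 interferon genes among them.

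**Figure D5:**
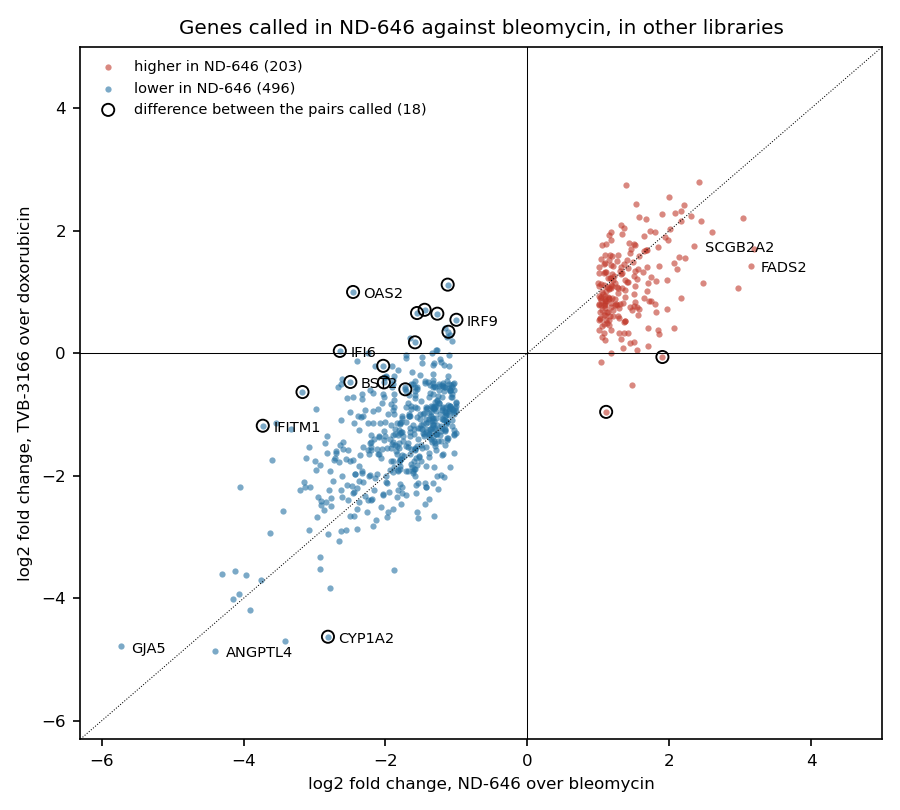
Log2 fold change of TVB-3166 over doxorubicin (vertical axis) against that of ND-646 over bleomycin (horizontal axis) for genes called in the latter and tested in both, red for 203 higher and blue for 496 lower genes, with a dotted line of equal values. The 2 axes use separate libraries, and black circles mark 18 genes whose difference between the pairs was called, among them OAS2, IFI6, IFITM1 and BST2 above the line and CYP1A2 below it.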

How the data were processed

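RNA of 24 SKBr3 libraries, 3 in each of 8 groups, was sequenced on an Illumina NovaSeq. Per the labels and the study's methods, the authors aligned reads with HISAT2 to GRCh37 and quantified genes with StringTie, and they deposited whole-number read counts per gene. The methods name a total RNA kit and the labels an mRNA kit. All 14493 genes listed have a count of 1 or more in every library. A gene that is not listed may still have been read in some libraries, so its absence does not show that it was silent. Every library had a group in its labels.

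Counts were tested with edgeR 4.0.16 (quasi-likelihood, filterByExpr, TMM) in R 4.3.3, a fit for each pair of groups, with DESeq2 1.42.0 as an alternative. A call is a difference of at least 2-fold at an adjusted p under 0.05, and SE is the log2 fold change over the root of F. Genes named were the 12 highest and 12 lowest by log2 fold change among those with an adjusted p under 0.05, no overlap between groups and a mean of 5 CPM or more in the higher group, the drug targets, up to 6 called members of each list with others by role, and genes the study names. The gene lists and the comparison itself were chosen with earlier results of these data known. Same-numbered ND-646 and bleomycin libraries deviated together (correlations 0.386, 0.11 and 0.385), as did bleomycin and day-7 libraries (0.166, 0.127 and 0.127), so a replicate block was fitted as well. The fit was tested on simulated counts, at an adjusted p under 0.05 with no minimum fold. For ND-646 against bleomycin, 57 of 100 2-fold and 99 of 100 4-fold changes were recovered, with 15 false calls. Of 100 2-fold changes, 77 were recovered for ND-646 against day 7. The figure was 98 for bleomycin against day 7 and for TVB-3166 against doxorubicin. Call counts of these comparisons therefore differ in power at 2-fold. Promoters came from RefSeq (GRCh38.p14) by symbol. Some members of the lists are counted but not reported by name here.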

Additional observations from a re-analysis of the deposited data

Results flagged for a closer look

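The fit of all 12 libraries that set the ND-646 to bleomycin difference against the TVB-3166 to doxorubicin difference called 14 members of the gene lists, each with a log2 difference between the pairs given here as the first minus the second (edgeR's quasi-likelihood test). On the negative side were the interferon genes OAS2 (-3.444), IFI6 (-2.677), IFITM1 (-2.542), BST2 (-2.016), OAS1 (-1.886), IRF9 (-1.538), OAS3 (-1.535) and IRF7 (-1.47). The mucin MUC1 (-1.57), the macrophage marker CD68 (-1.392) and the keratin KRT23 (-1.103) were on the same side. On the positive side were CYP1A1 (3.564), BPIFB1 (1.954) and CYP1A2 (1.829).

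CYP1A1, which oxidises aromatic hydrocarbons, had the largest difference. It was at 888, 1230 and 884 CPM under ND-646 and 699, 1103 and 870 CPM under bleomycin, and at 137, 194 and 184 CPM under TVB-3166 and 1567, 1911 and 1924 CPM under doxorubicin (difference 3.56 ± 0.28, adjusted p = 0.000176). The 3 TVB-3166 libraries were the low ones and the 3 doxorubicin libraries the high ones, with the ND-646 and bleomycin libraries between them and overlapping. IRF9 was at 36.3, 34.3 and 37.1 CPM under TVB-3166 and 24.7, 25.8 and 23.4 CPM under doxorubicin, with all 3 TVB-3166 libraries the higher ones, while its ND-646 libraries were all under its bleomycin libraries. OAS1 was at 43.8, 46.6 and 41.7 CPM and 15.8, 22.9 and 14.4 CPM in the same order. Dixon's test of single values was not run on these groups of 3 libraries.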

How the results depend on the processing

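Between ND-646 and bleomycin, 356 genes were higher and 785 lower with all 24 libraries in 1 fit, 345 and 798 at an unadjusted p, and 437 higher with no minimum fold. With no minimum fold, ND-646 against day 7 gave 2354 and 2338, bleomycin against day 7 gave 3089 and 3205, and TVB-3166 against doxorubicin gave 2988 and 3178. Leaving out 1 library gave 35 to 204 higher and 141 to 589 lower between ND-646 and bleomycin, 868 to 1143 and 967 to 1246 for ND-646 against day 7, 968 to 1230 and 572 to 955 for bleomycin against day 7, and 370 to 489 and 750 to 887 for TVB-3166 against doxorubicin. The cause was not tested. With a replicate block 283 genes were higher and 701 lower between ND-646 and bleomycin. The 36 called differences between the pairs became 23 with RLE size factors, 23 with no filter, 115 with a replicate block and 12 to 175 without 1 library. Without 1 library LMNB1 ran from -0.4393 to 0.02183 and CYP1A1 from -0.01286 to 0.3436, neither of them called. Among values of single genes under an alternative, 2037 kept direction and call, 324 lost the call and 7 gained it. With 3 libraries a group, a missed call does not show equal levels, and genes at a CPM under 1 rest on few reads.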
